A study of Mus musculus with 6 samples.

Results

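The proteins of the basement membrane and the integrin receptors that bind cells to matrix were followed in mouse mammary tumors as 37 genes: 6 collagen IV chains, 10 laminin chains, 2 nidogens, 2 heparan sulfate proteoglycans, dystroglycan and 16 integrin subunits. They were taken by name from the deposited array table, in which 19937 genes had a probe set naming no other gene, and each of the 37 had 1 such probe set. A probe set is the group of array probes that is summed into 1 log2 signal, and a difference of 1 log2 unit is 2-fold. The tumors grew from 4T1 cells, a mouse mammary carcinoma line, of which 750000 were placed into the fourth mammary gland of Balb/C mice. From day 7 the mice received either water (3 tumors) or TKI258 at 40 mg/kg (3 tumors) by mouth, once a day for 14 days. TKI258 is an inhibitor of several receptor tyrosine kinases, among them the receptors for FGF, VEGF and PDGF. RNA came from whole, individual tumors, so each value sums cancer cells, vessels, stroma and blood cells, and fewer cells of a type cannot be told apart from less RNA per cell.

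A basement membrane is a thin sheet of matrix on which epithelial and endothelial cells rest. Laminin trimers and collagen IV trimers each form a network, nidogen and the proteoglycan perlecan link them, and integrins, which are pairs of an alpha and a beta chain, connect the sheet to the cytoskeleton of the cell. In tumors the sheet of the blood vessels is rich in the alpha 1 and alpha 2 chains of collagen IV, in nidogens and in the laminin chains alpha 4 and alpha 5.

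In tumors from TKI258-treated mice the signals of the collagen IV chains Col4a1 and Col4a2 and of Nid2 were lower than in every water tumor, and the signal of Col4a5 was higher than in every water tumor. Among the integrins, Itga6 and Itga9 were lower in all TKI258 tumors and Itga1 was higher, though by only 0.045 at the closest point. Itgb1, the beta chain that can pair with each of them, differed by -0.06 ± 0.09 (SE) log2 units. Below, group means carry the SD and differences, always TKI258 minus water, carry the SE. None of the 37 genes passed the test once p-values were adjusted over the 34760 probe sets of the array, so these are differences between 3 tumors and 3 tumors, given with their intervals. Across the array 0% of probe sets passed the limma test at an adjusted p of 0.05, and 2803 had an unadjusted p under 0.05.

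Both lower collagen chains sit head to head on chromosome 8, and Col4a5 and Col4a6 form a like pair on chromosome X, which is why their promoters are shown. Each window covers 250 bases before to 50 bases after the annotated start, read 5′ to 3′ on the gene's own strand, from RefSeq (GRCm38.p6). Col4a1 lies at chr8:11312777-11313076, minus strand, and Col4a2 at chr8:11312555-11312854, plus strand. In this pair capitals mark the 78 bases that the windows share, which read as reverse complements of each other.
Col4a1: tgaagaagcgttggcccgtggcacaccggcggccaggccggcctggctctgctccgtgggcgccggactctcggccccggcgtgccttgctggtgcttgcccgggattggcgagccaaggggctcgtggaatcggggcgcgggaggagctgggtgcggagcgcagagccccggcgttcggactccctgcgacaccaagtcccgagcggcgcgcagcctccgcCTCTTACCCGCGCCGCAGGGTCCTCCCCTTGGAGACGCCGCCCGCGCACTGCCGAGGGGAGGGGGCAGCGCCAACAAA
Col4a2: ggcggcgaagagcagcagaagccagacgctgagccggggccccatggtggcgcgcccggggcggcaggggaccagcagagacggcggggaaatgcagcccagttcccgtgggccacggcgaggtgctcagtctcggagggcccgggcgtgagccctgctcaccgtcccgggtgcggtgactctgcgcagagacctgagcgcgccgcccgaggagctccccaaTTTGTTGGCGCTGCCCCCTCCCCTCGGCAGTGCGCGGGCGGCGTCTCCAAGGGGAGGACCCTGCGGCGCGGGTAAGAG
Col4a5 lies at chrX:141475169-141475468, plus strand, and Col4a6 at chrX:141474027-141474326, minus strand. In this pair capitals mark matches to CCCTCCC on either strand.
Col4a5: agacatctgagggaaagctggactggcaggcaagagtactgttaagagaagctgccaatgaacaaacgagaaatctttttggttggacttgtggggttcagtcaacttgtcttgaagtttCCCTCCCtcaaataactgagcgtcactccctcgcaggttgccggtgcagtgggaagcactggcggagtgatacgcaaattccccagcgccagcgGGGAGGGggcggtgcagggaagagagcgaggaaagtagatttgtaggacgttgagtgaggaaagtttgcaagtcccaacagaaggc
Col4a6: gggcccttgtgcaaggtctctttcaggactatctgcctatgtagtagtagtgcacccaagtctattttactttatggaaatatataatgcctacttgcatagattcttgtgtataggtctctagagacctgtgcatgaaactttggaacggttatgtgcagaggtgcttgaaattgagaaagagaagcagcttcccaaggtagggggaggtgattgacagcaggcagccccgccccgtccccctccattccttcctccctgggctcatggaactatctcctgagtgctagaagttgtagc

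The annotated starts of Col4a1 and Col4a2 were 21 bases apart, each lying downstream of the other, so the annotated 5′ ends overlapped. Those of Col4a5 and Col4a6 were 1343 bases apart, with no shared base between their windows. The Col4a1 and Col4a2 windows held 74% and 73.7% G and C, against a median of 52.7% over 32851 mouse promoters, while Col4a5 held 52.7% and Col4a6 48.3%. Of 4 motifs searched on both strands, CCCTCCC occurred 1 time in each of Col4a1 and Col4a2, 2 times in Col4a5 and 0 times in Col4a6, and 21.95% of all promoters held it. The GC box GGGCGG occurred 1 time in Col4a1, 3 times in Col4a2 and 1 time in each of Col4a5 and Col4a6 (35.7% of all promoters), and in Col4a5 it shared 1 base with a CCCTCCC match. The Col4a1 matches to CCCTCCC and GGGCGG lie in the shared bases, so both sites are also counted for Col4a2. CCAAT was found 1 time in each window except that of Col4a6 (37.4% of all promoters), and TATAAA in none of the 4 (13.6%). These are matches of letters, and 26 of the 37 genes had a promoter in the table.

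Over all 37 genes, 20 were lower and 17 were higher with TKI258. Unadjusted limma p-values under 0.05 came from 7 lower genes (18.9%), where 3.35% of all genes on the array were lower at that level. They also came from 5 higher genes (13.5%), against 3.79% of all genes. With each array shifted to the same median the split was 7 lower and 3 higher, against 3.39% and 3.15% of all genes. All TKI258 tumors lay below all water tumors for 5 genes (13.5%, against 6.49% of all genes) and above them for 4 genes (10.8%, against 8.66%). These shares over all genes depend on signal. A low-signal filter kept probe sets with a mean above the median of all probe sets. Among the genes it kept, 5.31% were lower and 2.36% higher at an unadjusted limma p under 0.05. Of the same genes, 10.2% lay wholly below and 4.71% wholly above the water tumors. The median difference was -0.06 over the 37 genes and 0.02 over all genes, TKI258 minus water. The collagen IV, laminin and integrin genes did not share 1 direction: 2 collagen IV genes were lower and 4 higher, 4 laminin genes were lower and 6 higher, and 11 integrin genes were lower and 5 higher. In addition, 7 of the 37 genes (Col4a3, Col4a4, Col4a6, Lama1, Itga8, Itgb6 and Itgb8) stayed below the median signal of the array in all 6 tumors, where the array gives little information on a gene's level.

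**Figure D1:**
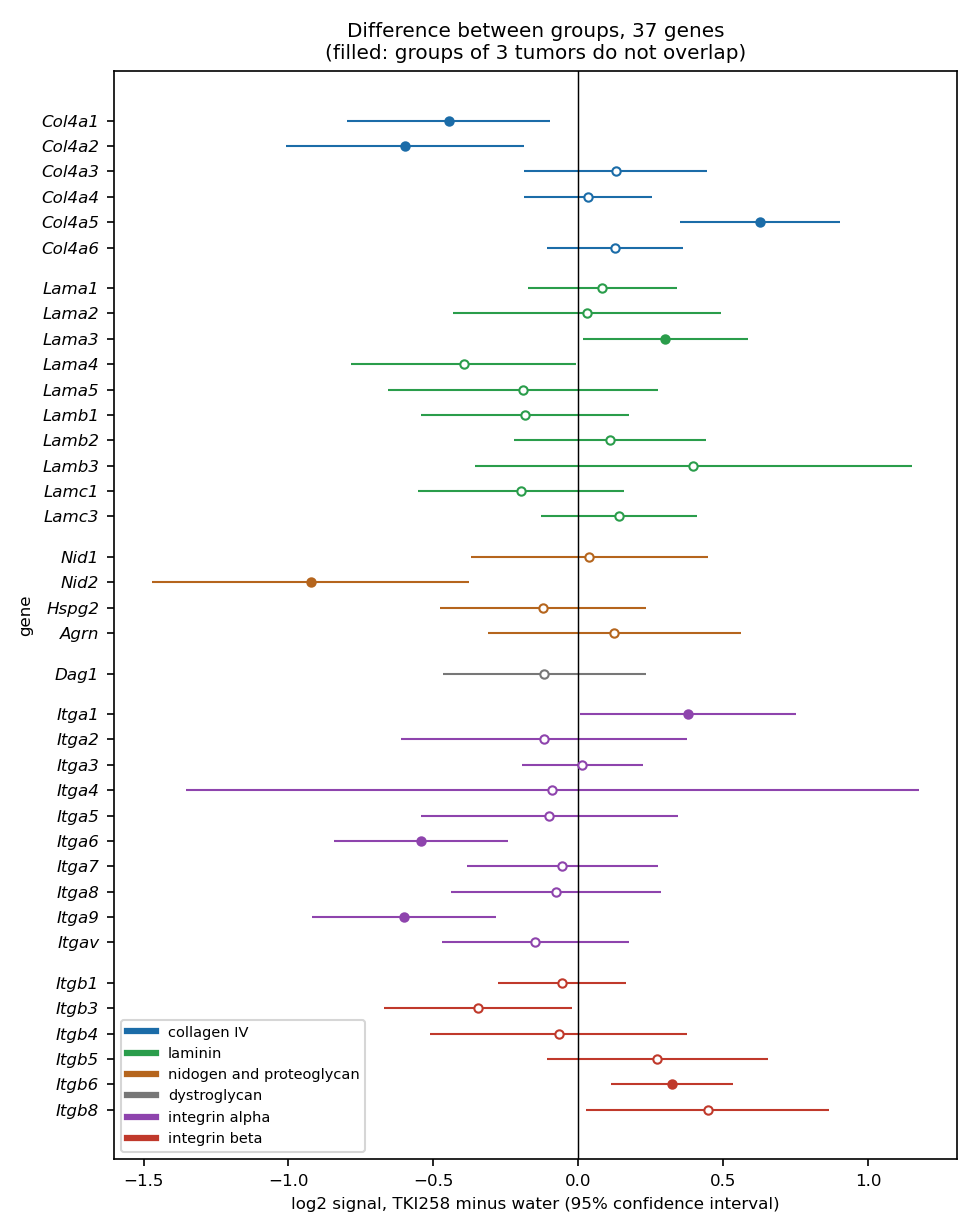
Difference in log2 signal between TKI258 and water tumors for each of the 37 genes, with 95% confidence intervals from limma, coloured by class. Filled points mark the 9 genes whose groups of 3 tumors did not overlap: 5 lie left of 0 (lower with TKI258) and 4 right of it.

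Col4a1 and Col4a2 encode the chains of the common collagen IV trimer, found in nearly all basement membranes. The log2 signal of Col4a2 (probe set 10570068) was 8.89, 9.37 and 8.69 in water tumors 1, 2 and 3 and 8.40, 8.38 and 8.38 in TKI258 tumors 1, 2 and 3. The TKI258 tumors lay close to each other and below all water tumors, of which water tumor 2 was the highest. Group means were 8.98 ± 0.35 (SD, n = 3) with water and 8.39 ± 0.01 (SD, n = 3) with TKI258, a difference of -0.60 ± 0.17 (SE; 95% interval -1.01 to -0.19), or 1.51-fold lower (limma adjusted p = 0.574). Col4a1 (probe set 10576973) had the same order of tumors among the water group, with 8.88, 9.23 and 8.67 with water and 8.46, 8.49 and 8.48 with TKI258. The groups did not overlap, and the means were 8.92 ± 0.28 (SD, n = 3) with water and 8.48 ± 0.02 (SD, n = 3) with TKI258. The Col4a1 difference was -0.45 ± 0.15 (95% interval -0.80 to -0.10), 1.36-fold lower (limma adjusted p = 0.574). Both differences were smaller without water tumor 2, where the Col4a1 difference was -0.30 and the Col4a2 difference was -0.40.

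The other 4 collagen IV chains are more restricted in the body: alpha 3, alpha 4 and alpha 5 form the trimer of the kidney filter, and alpha 5 and alpha 6 occur together in skin and around smooth muscle. Col4a5 (probe set 10602105) read 7.29, 7.22 and 7.31 in water tumors 1, 2 and 3 and 7.92, 8.08 and 7.70 in TKI258 tumors 1, 2 and 3. Every TKI258 tumor was above every water tumor, by at least 0.39 log2 units, and the water tumors were close to each other. Group means were 7.27 ± 0.05 (SD, n = 3) with water and 7.90 ± 0.19 (SD, n = 3) with TKI258, and the difference was 0.63 ± 0.12 (95% interval 0.35 to 0.90), 1.54-fold higher (limma adjusted p = 0.484). Leaving out any 1 tumor gave differences between 0.54 and 0.73. Col4a6, on the other side of the same locus, differed by 0.13 ± 0.10, Col4a3 by 0.13 ± 0.13 and Col4a4 by 0.03 ± 0.09, all with overlapping groups and low signal.

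Within a tumor, the log2 ratio of Col4a5 to Col4a1 was higher with TKI258 by 1.07. All TKI258 tumors were higher for Col4a5 and lower for Col4a1, so this ratio could not overlap and its p was fixed in advance. The ratio of Col4a2 to Col4a1 differed by -0.15, with no overlap. Both gave p = 0.1 in an exact two-sided permutation test, the smallest that 3 tumors against 3 can give (0.133 after Benjamini-Hochberg adjustment over the 8 gene ratios computed, which were chosen after the values were seen).

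Nidogens 1 and 2 bind both laminin and collagen IV. Nid2 (probe set 10412921) had log2 signals of 7.32, 7.98 and 7.07 in water tumors 1, 2 and 3 and 6.60, 6.61 and 6.40 in TKI258 tumors 1, 2 and 3. The groups were separated by 0.46, and water tumor 2 was again the highest. Group means were 7.46 ± 0.47 (SD, n = 3) with water and 6.54 ± 0.12 (SD, n = 3) with TKI258, a difference of -0.92 ± 0.23 (95% interval -1.47 to -0.38), 1.90-fold lower (limma adjusted p = 0.550), and the size was the largest among the 37 genes. Without water tumor 2 the difference was -0.66. Nid1 differed by 0.04 ± 0.17 (95% interval -0.37 to 0.45), with overlapping groups, and its direction turned when water tumor 2 or TKI258 tumor 3 was left out and with array weights. The log2 ratio of Nid2 to Nid1 differed by -0.96, TKI258 minus water, with no overlap (exact permutation p = 0.1, adjusted 0.133).

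Perlecan, the large proteoglycan encoded by Hspg2, read 9.67, 9.84 and 9.60 with water and 9.61, 9.83 and 9.31 with TKI258, in the order of tumors used above. These groups overlapped, and the difference was -0.12 ± 0.15 (95% interval -0.48 to 0.23). Agrn, which encodes agrin, differed by 0.12 ± 0.18, and Dag1, which encodes the laminin receptor dystroglycan, by -0.12 ± 0.15. Both had overlapping groups, and TKI258 tumor 3 was the lowest of the 6 for Hspg2, Agrn and Dag1.

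**Figure D2:**
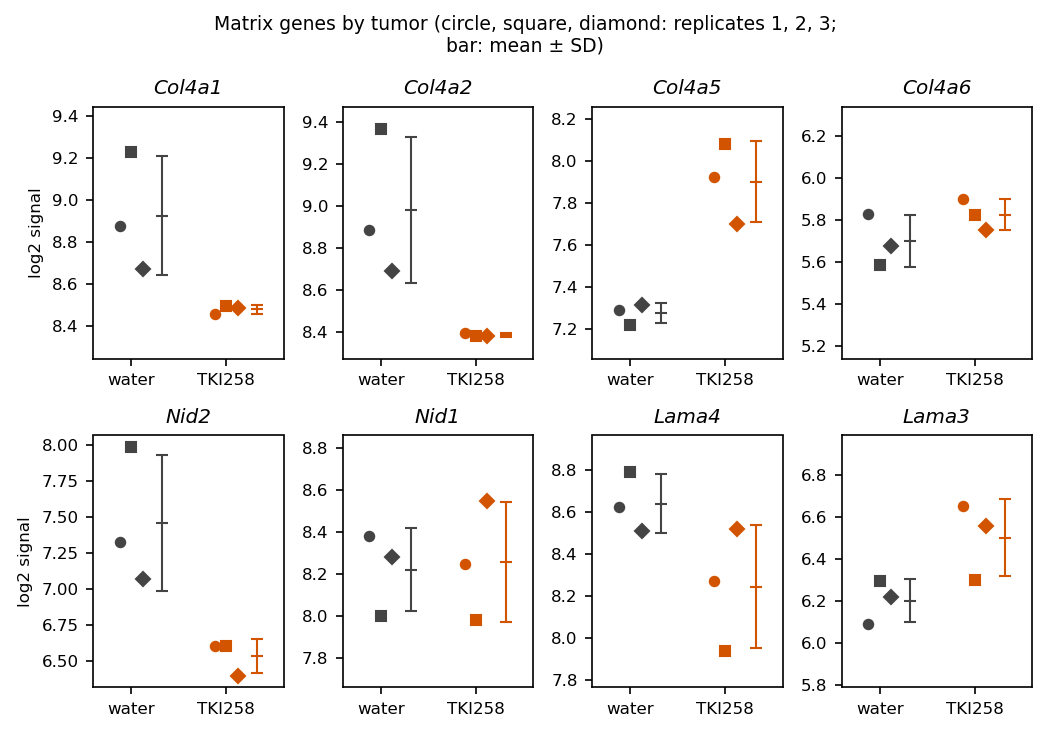
Log2 signal of 8 matrix genes in each tumor, with the mean and SD of each group of 3 beside the points. Col4a1, Col4a2 and Nid2 lie lower in all TKI258 tumors and Col4a5 higher, whereas the groups overlap for Col4a6, Nid1 and Lama4 and nearly touch for Lama3.

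Laminin chains join as alpha, beta and gamma. Lama4, the alpha chain made mainly by endothelial and mesenchymal cells, read 8.62, 8.79 and 8.51 in water tumors 1, 2 and 3 and 8.27, 7.94 and 8.52 in TKI258 tumors 1, 2 and 3. TKI258 tumor 2 was the lowest, but TKI258 tumor 3 was slightly above water tumor 3, so the groups overlapped. The difference was -0.40 ± 0.16 (95% interval -0.78 to -0.01; limma adjusted p = 0.615), and without TKI258 tumor 2 it was -0.24. Lama5, the alpha chain of epithelia and mature vessels, read 10.72, 10.93 and 10.60 with water and 10.69, 10.84 and 10.15 with TKI258. Its groups overlapped, TKI258 tumor 3 was the lowest, and the difference was -0.19 ± 0.20 (95% interval -0.66 to 0.28).

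Lamc1 encodes the gamma chain of most laminins and read 10.72, 10.96 and 10.57 with water and 10.66, 10.68 and 10.31 with TKI258. The groups overlapped and differed by -0.20 ± 0.15 (95% interval -0.55 to 0.16). Lamb1, its frequent beta partner, differed by -0.18 ± 0.15, and Lamb2 by 0.11 ± 0.14, both with overlap. Without TKI258 tumor 3 the differences were -0.08 for Lamc1 and -0.04 for Lamb1.

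Lama3 and Lamb3 encode laminin chains of stratified and glandular epithelia. Lama3 read 6.09, 6.30 and 6.22 with water and 6.65, 6.30 and 6.56 with TKI258. All TKI258 tumors were above the water tumors, but by only 0.0014 log2 units between water tumor 2 and TKI258 tumor 2. The difference was 0.30 ± 0.12 (95% interval 0.02 to 0.58; limma adjusted p = 0.614). Lamb3 differed by 0.40 ± 0.32, with water tumor 2 the lowest at 6.63 and a wide interval of -0.36 to 1.15. Of the remaining laminin chains, Lama1 differed by 0.08 ± 0.11, Lama2 by 0.03 ± 0.19 and Lamc3 by 0.14 ± 0.11, each with overlapping groups. The median difference over the 10 laminin genes was 0.06, and it was -0.076 with the low-signal filter, -0.076 with the low-variance filter and -0.014 with array weights.

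The integrin alpha chains that bind laminin are those of Itga3, Itga6 and Itga7, and Itgb4 encodes the beta chain that pairs with alpha 6 in hemidesmosomes. Itga6 (probe set 10472820) read 10.06, 10.41 and 10.26 in water tumors 1, 2 and 3 and 9.61, 9.87 and 9.62 in TKI258 tumors 1, 2 and 3. All TKI258 tumors were lower than all water tumors, with a gap of 0.19. Group means were 10.24 ± 0.17 (SD, n = 3) with water and 9.70 ± 0.15 (SD, n = 3) with TKI258, and the difference was -0.54 ± 0.13 (95% interval -0.84 to -0.24), 1.46-fold lower (limma adjusted p = 0.533). Leaving out any 1 tumor gave differences between -0.63 and -0.46. Itgb4 differed by -0.07 ± 0.19, Itga7 by -0.06 ± 0.14 and Itga3 by 0.01 ± 0.09, a difference that became negative (-0.003) when each array was shifted to the same median. The log2 ratio of Itga6 to Itga3 differed by -0.56, with no overlap (exact permutation p = 0.1, adjusted 0.133).

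Itga9 encodes a partner of beta 1 that binds tenascin C, osteopontin and other ligands and is found on lymphatic endothelium, muscle and neutrophils. Its signals (probe set 10590031) were 7.71, 8.09 and 7.72 with water and 7.15, 7.37 and 7.20 with TKI258. Every TKI258 tumor was lower, by at least 0.34, and water tumor 2 was the highest. The means were 7.84 ± 0.22 (SD, n = 3) with water and 7.24 ± 0.12 (SD, n = 3) with TKI258, a difference of -0.60 ± 0.13 (95% interval -0.92 to -0.28), 1.52-fold lower (limma adjusted p = 0.517). A related chain, Itga4, which leukocytes use to bind VCAM1 and fibronectin, read 8.49, 8.19 and 8.28 with water and 7.33, 7.82 and 9.54 with TKI258. TKI258 tumors 1 and 2 were below all water tumors and TKI258 tumor 3 was above them. The difference was -0.09 ± 0.53 (95% interval -1.35 to 1.17), and without TKI258 tumor 3 it was -0.75. That tumor also had the highest mean signal of 9 B cell markers (8.75, against 5.09 to 6.89 in the others) and of 9 T cell markers (7.86, against 5.44 to 6.53); the part of lymphocytes in the Itga4 value was not tested.

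Of the collagen receptors, Itga1 was higher in all TKI258 tumors and Itga2 overlapped. Itga1, whose chain with beta 1 binds collagen IV, read 9.66, 9.73 and 9.27 with water and 9.89, 10.13 and 9.77 with TKI258. The TKI258 tumors were all above the water tumors, by 0.045 at the closest point. The difference was 0.38 ± 0.16 (95% interval 0.01 to 0.75), 1.30-fold higher (limma adjusted p = 0.615), and without water tumor 3 it was 0.24. Itga2, which lies next to Itga1 in the genome and whose chain binds fibrillar collagen, differed by -0.12 ± 0.21. Its water tumors alone spanned 9.04 to 9.89, and the log2 ratio of Itga1 to Itga2 overlapped between groups (exact permutation p = 0.3, adjusted 0.343).

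Itgb1 encodes the beta chain shared by most matrix receptors. It read 11.39, 11.44 and 11.37 with water and 11.41, 11.42 and 11.21 with TKI258. The groups overlapped, the difference was -0.06 ± 0.09, and the interval ran from -0.28 to 0.17, so a change of more than 0.28 in either direction lay outside it. Itga5, whose chain forms the fibronectin receptor with beta 1, read 8.46, 8.25 and 8.81 with water and 8.64, 8.45 and 8.13 with TKI258. Those groups overlapped too, with a difference of -0.10 ± 0.19 (95% interval -0.54 to 0.34). Itgav, the alpha chain of most receptors for vitronectin and for latent TGF-beta, read 10.48, 10.74 and 10.56 with water and 10.47, 10.65 and 10.22 with TKI258. It also overlapped and differed by -0.15 ± 0.14 (95% interval -0.47 to 0.17), and TKI258 tumor 3 was the lowest for Itgb1, Itga5 and Itgav.

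The beta chains that pair with alpha v did not move as 1 group. Itgb3, found on platelets, osteoclasts and growing vessels, read 8.57, 8.43 and 8.29 with water and 8.33, 7.95 and 7.97 with TKI258. TKI258 tumor 1 reached into the water range, and the difference was -0.35 ± 0.14 (95% interval -0.67 to -0.02; limma adjusted p = 0.614). Itgb6, an epithelial chain that takes part in TGF-beta activation, read 4.19, 4.20 and 4.22 with water and 4.65, 4.46 and 4.47 with TKI258. All TKI258 tumors were higher, by 0.32 ± 0.09 (limma adjusted p = 0.569), at a signal below the array median in every tumor. Itgb8, also known for TGF-beta activation, read 5.72, 5.10 and 5.41 with water and 5.81, 5.71 and 6.04 with TKI258, likewise below the median. Its groups overlapped, with a difference of 0.45 ± 0.18 (limma adjusted p = 0.614), and Itgb5 differed by 0.27 ± 0.16 with overlap.

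Itga8, a partner of beta 1 found on mural and mesenchymal cells, differed by -0.08 ± 0.15 at low signal. By class, 8 of 10 alpha chains were lower (median -0.10) and 3 of 6 beta chains were lower (median 0.11), against a median of 0.02 over all genes.

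**Figure D3:**
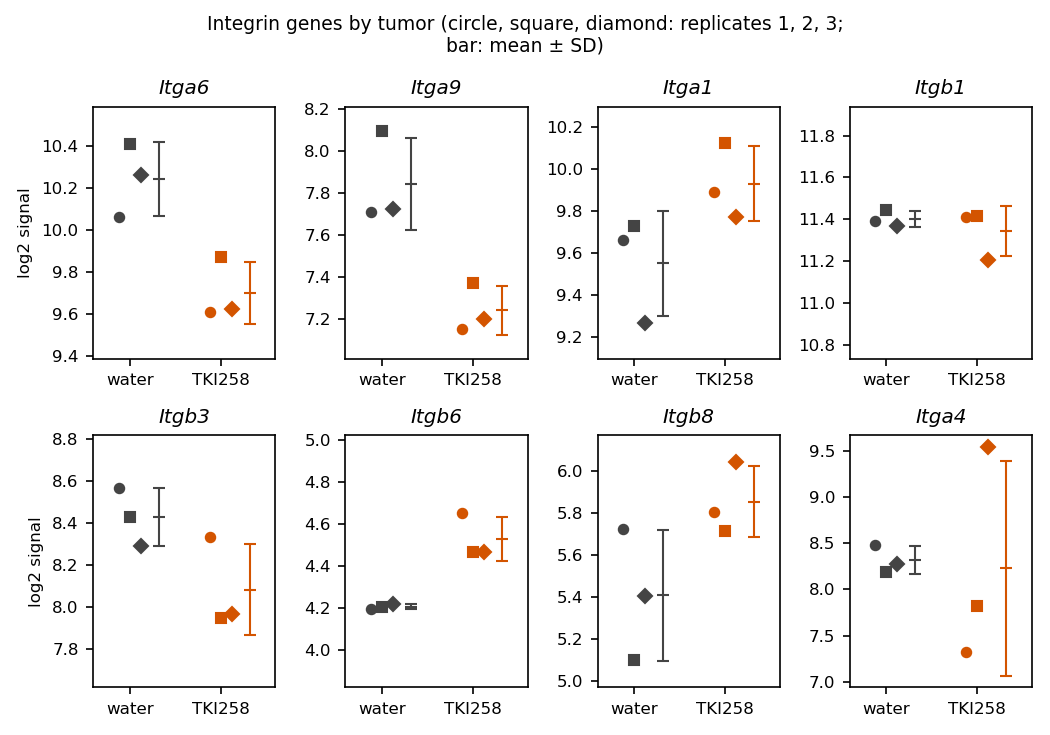
Log2 signal of 8 integrin genes in each tumor, with the mean and SD of each group of 3. Itga6 and Itga9 are lower and Itga1 and Itgb6 higher in all TKI258 tumors, Itgb1 differs by -0.06, and TKI258 tumor 3 stands apart for Itga4 at 9.54.

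For the lists of genes around this set, counts at an unadjusted p under 0.05 read against 3.35% of all genes lower and 3.79% higher at that level. Of 22 other basement membrane genes, 12 were lower and 10 higher, and none had an unadjusted limma p under 0.05. The smallest p-values there were those of Fras1, a protein of the skin basement membrane (0.26 ± 0.12), Fbln1, the matrix protein fibulin 1 (0.30 ± 0.17), and Ntn1, the laminin-related netrin 1 (0.28 ± 0.16). Among 15 genes for assembly and crosslinking of collagen, 11 were lower and 4 higher, none at that level, with -0.73 ± 0.35 for the crosslinking enzyme Loxl4, 0.86 ± 0.45 for its relative Lox and 0.41 ± 0.24 for the prolyl hydroxylase subunit P4ha2.

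Of 17 genes for other integrin ligands, such as fibronectin and vitronectin, 7 were lower and 10 higher. Ibsp, the bone sialoprotein that binds alpha v beta 3, read 9.04, 7.99 and 8.19 with water and 7.20, 6.43 and 6.10 with TKI258. All TKI258 tumors were lower, with a difference of -1.83 ± 0.36 (limma adjusted p = 0.484). No other gene of that list had an unadjusted p under 0.05, and Vtn, encoding vitronectin, differed by 0.49 ± 0.31 and Fgg, a fibrinogen chain, by 0.33 ± 0.23. Fn1, encoding fibronectin, differed by 0.07 ± 0.12.

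The 12 other integrin subunits, most of them leukocyte chains, were lower for 4 and higher for 8. Itgax, the chain of dendritic cells and macrophages known as CD11c, differed by -0.85 ± 0.31 (limma adjusted p = 0.599), Itga2b, the platelet chain, by 0.27 ± 0.13, and Itga11, a collagen receptor of fibroblasts, by 0.29 ± 0.15. Of 29 adaptors and kinases of integrin adhesions 20 were lower and 9 higher. Among these, Lims2, a partner of integrin-linked kinase, differed by 0.30 ± 0.10 and Apbb1ip, which carries Rap1 signals to talin, by -0.28 ± 0.09, both with groups that did not overlap and unadjusted limma p-values under 0.05 (limma adjusted p = 0.574 for both). Paxillin (Pxn) differed by -0.19 ± 0.09. Of 13 genes of the dystrophin complex, which holds dystroglycan, 4 were lower and 9 higher and none had an unadjusted p under 0.05, with -0.22 ± 0.10 for Dtnb, 0.35 ± 0.16 for Sgcd and 0.29 ± 0.13 for Sgce, a dystrobrevin and 2 sarcoglycans.

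Markers of the cells that make these proteins also differed between tumors. The mean log2 signal of 17 endothelial markers was 7.82, 7.97 and 7.60 with water and 7.47, 7.44 and 7.79 with TKI258, and 13 of the 17 were lower with TKI258. Water tumor 2 had the highest mean of these markers as it was highest for Col4a1, Col4a2 and Nid2. The list mean of TKI258 tumor 3, which had low Col4a1 and Nid2, lay within the range of the water tumors. The endothelial surface proteins Emcn and Cd93 differed by -0.74 ± 0.16 and -0.88 ± 0.22, and Vwf, a clotting factor of endothelium, by 0.47 ± 0.12, all without overlap. Cdh5, the cadherin of endothelial junctions, differed by -0.51 ± 0.18 and Pecam1 by -0.16 ± 0.34. In TKI258 tumor 3, Emcn (7.29) and Cd93 (8.56) were below every water tumor, Pecam1 (9.29) and Vwf (7.37) were above, and Cdh5 (8.33) was within their range. The part of endothelial cell number in the lower collagen IV, Nid2, Lama4 and Itga6 signals was not tested.

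Of 13 mural cell markers, 9 were lower, with tumor means of 7.38, 7.39 and 7.40 with water and 7.32, 7.09 and 7.37 with TKI258. Fibroblast markers were lower for 2 and higher for 8 of 10, with means of 9.06, 8.91 and 9.17 with water and 9.29, 9.15 and 9.61 with TKI258. Dcn (0.79 ± 0.23), Col3a1 (0.51 ± 0.20) and Dpt (1.17 ± 0.47), which encode matrix proteins of connective tissue, were above the water range in all TKI258 tumors. Adipocyte markers were higher for 12 of 13, with means of 7.01, 6.21 and 6.65 with water and 7.06, 7.66 and 8.38 with TKI258, among them Lep (0.76 ± 0.16), Cidec (1.87 ± 0.49) and Plin4 (1.55 ± 0.48). Fat cells and fibroblasts also make basement membrane proteins, and the part of either in the Col4a5 and Itga1 values was not tested.

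Keratinocyte markers had means of 5.52, 7.22 and 7.01 with water and 5.58, 5.36 and 5.75 with TKI258, high in water tumors 2 and 3, and 14 of 15 were lower with TKI258. Keratinocytes rest on a basement membrane with integrin alpha 6 beta 4. With water tumors 2 and 3 left out, which leaves 1 water tumor, Itga6 differed by -0.36, against -0.54 with all 6 tumors. The remaining water tumor had the lowest Itga6 signal of the water group (10.06), so a smaller difference followed from leaving out the others. The part of keratinocytes in the Itga6 value was not tested. Neutrophil markers were lower for 10 of 10, with means of 7.05, 7.44 and 7.55 with water and 6.89, 6.62 and 6.34 with TKI258, led by Ngp (-1.55 ± 0.25), and their part in the Itga9 value was not tested. Platelet markers were higher for 4 of 5, with means of 6.53, 6.55 and 6.37 with water and 6.85, 6.57 and 6.41 with TKI258, and their part in the Itgb3 value was not tested.

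Of the remaining lists, 11 of 12 macrophage markers were lower (means 9.24 to 9.77 with water and 9.13 to 9.23 with TKI258), and 10 of 12 skeletal muscle markers were lower (6.05 to 7.29 and 6.13 to 6.52, highest in water tumor 2). All 5 Schwann cell markers were higher (6.45 to 6.52 and 6.53 to 6.68). All 9 B cell markers and all 9 T cell markers had higher means with TKI258, and TKI258 tumor 3 had the highest list mean for both. TKI258 tumors 1 and 2 lay below the water group mean for B cells (5.22 and 5.38, against 5.74) and for T cells (5.53 and 5.44, against 5.92). Krt8 and Krt18, keratins of simple epithelia and of mammary carcinoma, ranged from 11.55 to 11.88 and from 11.13 to 11.70 over the 6 tumors. Of 9 tumor epithelium markers 2 were lower and 7 higher: Krt18 was below the water range in all TKI258 tumors (-0.32 ± 0.11), and Cldn4 (0.91 ± 0.30) and Krt7 (0.88 ± 0.36) were above it.

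**Figure D4:**
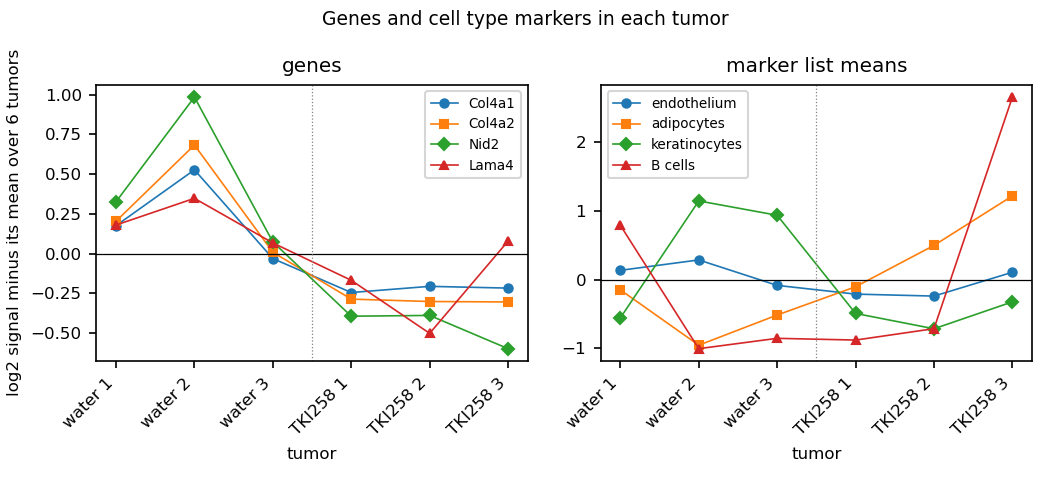
Log2 signal of 4 matrix genes (left) and mean of 4 marker lists (right) in each tumor, each centred on its mean over the 6 tumors. Water tumor 2 is the highest for the 4 genes and for the endothelial list, TKI258 tumor 3 stands out for B cells, and water tumors 2 and 3 for keratinocytes.

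Single tumors weighed on many of the 37 genes. Water tumor 2 had the highest signal for 15 genes (40.5%, against 18.2% of all genes on the array), and TKI258 tumor 3 the lowest for 13 genes (35.1%, against 28.2%). Leaving out 1 tumor at a time, the differences of Col4a2 ranged from -0.74 to -0.40, of Nid2 from -1.12 to -0.66, of Itga9 from -0.67 to -0.48 and of Itgb6 from 0.26 to 0.35, all in 1 direction. In every such fit the unadjusted limma p stayed below 0.05 for Col4a2, Col4a5, Nid2, Itga6, Itga9 and Itgb6. Those of Col4a1 (at most 0.053), Lama3, Lama4, Itga1, Itgb3 and Itgb8 were above 0.05 in at least 1 of these fits. The adjusted p stayed above 0.05 for all 37 genes in each of them.

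**Figure D5:**
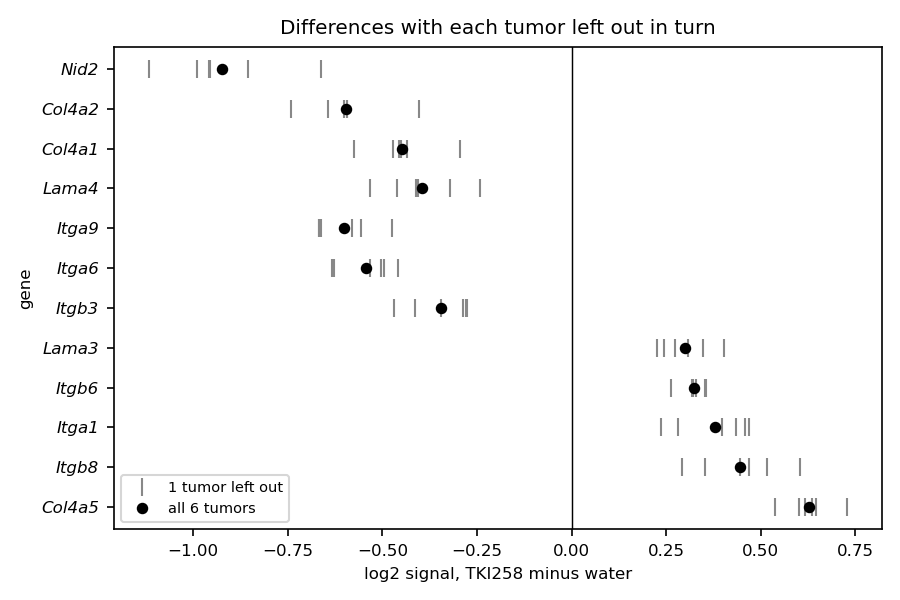
Difference in log2 signal (TKI258 minus water) for the 12 genes with an unadjusted limma p under 0.05, over all 6 tumors (dots) and with each tumor left out in turn (ticks). Col4a5 spans 0.54 to 0.73 and Itga6 -0.63 to -0.46, and none of the 12 genes crosses 0.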

How the data were processed

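RNA of 6 tumors was measured on Affymetrix arrays, 1 array per tumor. The deposited values are log2 signals that the authors made with RMA, and affy and limma are also named, per the submitters' processing notes; versions and the array's build: not given in the sources used here. Array medians lay between 6.38 and 6.44, and the number of arrays limits the precision. The deposited log2 values were used as they are. A gene took its probe set with the highest mean among those that the platform annotation gives to 1 gene (21640 of 34760). Groups were compared with limma 3.58.1 (lmFit and eBayes, two-sided, R 4.3.3) on all probe sets without a filter, with Benjamini-Hochberg adjustment over all of them and a threshold of 0.05. The script was tested on simulated data. The sample titles number the tumors but do not say that equal numbers mark pairs. Deviations from the group means correlated by -0.23, 0.19 and 0.01 in same-numbered tumors and by -0.28 to 0.31 in the others. With 3 tumors per group these values cannot exclude pairs. The numbers were not treated as pairs in the main comparison, and an alternative used them as a block. Values in every tumor are given for members with an unadjusted p under 0.05 or groups that did not overlap, and for Itgb1, Itgav, Itga6, Itga5, Lamc1, Lama4, Lama5 and Hspg2; of each of 6 pathway and 13 cell type lists, at most 3 genes are named, those with the smallest p. Itga4, Fn1, Cdh5, Pecam1 and Krt8 were named after their values were seen. The 37 members and the lists were chosen with earlier results of these data known.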

Additional observations from a re-analysis of the deposited data

How the results depend on the processing

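Groups of 3 tumors leave wide intervals for most differences. No member passed an adjusted limma p of 0.05 in any of 16 alternatives, and 534 of 578 member values kept their direction; 19 of 37 members never reversed. With the replicate block, 6 members were lower and 4 higher at an unadjusted p under 0.05, against 2.73% and 3.30% of all genes. Where values moved, the cause was not tested, except that filters remove members. Members higher at that level numbered 2 of 29 tested with the low-signal filter (2.36% of all genes), 1 of 31 with the low-variance filter (2.86%), 3 with median centring (3.15%), and 1 without water replicates 2 and 3 (0.732%), which also left 4 lower (0.893%) and 11 wholly below (19.2%). Without water replicate 1 and TKI258 replicate 3, 9 were wholly below (16.1% of all genes) and 11 wholly above (24.8%). Probe sets that passed numbered 2 with the low-variance filter and 1 without that pair. With all 6 tumors and no filter, median differences were 0.081 (collagen IV), 0.057 (laminin) and -0.072 (integrins). With the low-signal filter they were -0.45, -0.076 and -0.090, in that order. That filter left only Col4a1, Col4a2 and Col4a5 of the collagen IV genes, so -0.45 is the Col4a1 difference. With the low-variance filter the medians were -0.16 (collagen IV) and -0.076 (laminin). Without water replicates 2 and 3 they were -0.038 (collagen IV), -0.048 (laminin) and -0.042 (integrins). The integrin median was also -0.048 with quantile normalization, -0.090 with median centring, -0.034 with array weights and -0.041 without water replicate 1 and TKI258 replicate 3.

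Leaving out 1 tumor gave 0 to 3 probe sets that passed (3 without water replicate 1), 5 to 7 members lower (2.02% to 3.38% of all genes), 2 to 5 higher (2 without water replicate 3 or TKI258 replicate 1; 2.27% to 3.62% of all genes), 5 to 9 wholly below (9.59% to 11.3% of all genes), 4 to 8 wholly above (12.1% to 16.6%), and medians of -0.0078 (without water replicate 2) to 0.14 for collagen IV, -0.0065 to 0.10 for laminins and -0.10 to -0.011 for integrins.

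Members that reversed when 1 tumor was left out had these ranges: Col4a4 -0.031 to 0.085, Lama2 -0.19 to 0.16, Lama5 -0.33 to 0.017, Nid1 -0.11 to 0.18, Hspg2 -0.25 to 0.016, Itga2 -0.34 to 0.088, Itga3 -0.014 to 0.070, Itga4 -0.75 to 0.36, Itga5 -0.23 to 0.051, Itga7 -0.17 to 0.027, Itga8 -0.19 to 0.033, Itgb1 -0.092 to 0.013, Itgb4 -0.20 to 0.12 and Dag1 -0.20 to 0.0052.

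Reversed with array weights: Col4a4 -0.013, Lama2 -0.099, Nid1 -0.078 and Itgb4 0.063; with median centring: Itga3 -0.0031. Reversed without water replicate 1 and TKI258 replicate 3: Lama2 -0.15, Nid1 -0.028, Itgb4 0.15, Itga5 0.013, Lama5 0.0029, Itgb1 0.0077 and Lamb1 0.0044. Reversed without water replicates 2 and 3: Col4a4 -0.071, Lama2 -0.050, Nid1 -0.12, Itga8 0.15, Itga7 0.18, Dag1 0.040, Col4a6 -0.0046, Lama1 -0.046 and Lamc3 -0.0076.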
